A study of Homo sapiens with 18 samples.

Results

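The cytokine and chemokine genes are a list of 36 genes that encode secreted signals of immune cells and of the epithelium itself, chosen by name and not by their values. Their members are all probe sets that the annotation of the array assigns to 1 of these genes alone. Such probe sets were found for 35 genes, 58 probe sets in all, of 19775 genes and 41097 probe sets with 1 gene symbol. CSF2 had none in the annotation used and was not analysed here. RNA of 1 sample of untreated FTC133 cells, a human follicular thyroid carcinoma cell line, was hybridized in aliquots to 3 HG-U133 Plus 2.0 arrays, A, B and C, and each array was scanned repeatedly, which gave 18 scans. The second series of 9 scans followed a second staining (re-labelling): arrays A and B were scanned after 0, 2, 7 and 17 additional stringent washing cycles (A5 to A8, B5 to B8) and array C once (C2). The first series had the same steps after the first staining (A1 to A4, B1 to B4, C1). Before the first staining array A received 0 stringent cycles, array B 2 and array C the 6 of the standard protocol. Stringent cycles added up over both series, to totals of 0, 2, 7 and 17 on A1 to A4 and 17, 19, 24 and 34 on A5 to A8, of 2, 4, 9 and 19 on B1 to B4 and 21, 23, 28 and 38 on B5 to B8, and of 6 on C1 and 12 on C2. Each scan of the second series had thus been washed by 17 (array A), 19 (array B) or 6 (array C) more cycles than the scan of the first series with which it is paired, and in a difference between the series re-labelling and added washing cannot be told apart. All scans share 1 RNA sample and 1 untreated cell line, and no comparison is between biological states.

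Chemokines are small secreted proteins that bind G-protein coupled receptors on leukocytes and set the direction in which these cells migrate. Interleukins, colony-stimulating factors and the tumour necrosis factor superfamily act through other receptor families on growth, survival and inflammation. Many of these genes are silent in resting epithelium and are induced through NF-kB, a family of transcription factors that binds short elements in their promoters, and carcinoma cell lines often keep the neutrophil-attracting CXC chemokines switched on.

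The promoter elements of the CXC chemokines are shown first because the brightest members belong to this family. CXCL1, CXCL2, CXCL3, CXCL5, CXCL6 and CXCL8 lie in 1 cluster on chromosome 4, between the start of CXCL8 at 73740569 and the end of CXCL2 at 74099195 (GRCh38.p14, RefSeq). Promoter sequences of 300 bases around the annotated start were found for 25 of the 35 genes. GGAATTTCC, 1 form of the NF-kB element, searched on both strands, was present in 8 of these 25 promoters (32.0%), against 0.461% of 35116 promoters of the same length. Other forms were not searched. All 8 are promoters of CXC chemokines and some are near copies of each other, so the matches are not independent. The 41-base windows around GGAATTTCC are printed 5′ to 3′ on the strand of the gene, with the element in capitals.
CXCL1, chr4:73869299-73869339, plus strand: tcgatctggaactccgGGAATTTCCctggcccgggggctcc
CXCL2, chr4:74099248-74099288, minus strand: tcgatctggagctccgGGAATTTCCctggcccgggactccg
CXCL3, chr4:74038743-74038783, minus strand: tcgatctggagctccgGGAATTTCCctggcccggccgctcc
CXCL5, chr4:73998743-73998783, minus strand: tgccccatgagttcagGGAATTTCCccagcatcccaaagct
CXCL6, chr4:73836573-73836613, plus strand: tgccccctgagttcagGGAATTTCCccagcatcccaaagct
CXCL8, chr4:73740462-73740502, plus strand: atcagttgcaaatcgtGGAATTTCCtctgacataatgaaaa
CXCL10, chr4:76023649-76023689, minus strand: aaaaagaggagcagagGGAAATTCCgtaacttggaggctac
CXCL11, chr4:76036121-76036161, minus strand: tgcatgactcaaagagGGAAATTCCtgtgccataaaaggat

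Of the 41 bases, 35 were identical between CXCL1 and CXCL2, 38 between CXCL1 and CXCL3 and 40 between CXCL5 and CXCL6, against 20 between CXCL1 and CXCL5. In CXCL10 and CXCL11 the element is on the opposite strand and reads GGAAATTCC. Its last base lies 70 bases before the start of CXCL1, 69 before that of CXCL2, 70 before that of CXCL3, 82 before that of CXCL5, 81 before that of CXCL6 and 83 before that of CXCL8. It lies 168 bases before the start of CXCL10 and 67 before that of CXCL11. A match is a description of letters and does not show that the site is used in these cells.

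The whole promoters of CXCL1 and CXCL8, 2 of the 3 brightest members on scan C1, are shown to set the element in its surroundings. Capitals mark GGAATTTCC in both. In CXCL8 they also mark the AP-1 element TGACTCA and the TATA box TATAAA.
CXCL1, chr4:73869143-73869442, plus strand: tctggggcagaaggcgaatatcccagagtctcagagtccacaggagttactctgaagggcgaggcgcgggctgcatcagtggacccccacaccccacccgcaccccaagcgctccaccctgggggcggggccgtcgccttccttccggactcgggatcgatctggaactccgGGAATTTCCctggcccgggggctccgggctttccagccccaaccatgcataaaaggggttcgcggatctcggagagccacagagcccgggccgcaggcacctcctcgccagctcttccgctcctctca
CXCL8, chr4:73740319-73740618, plus strand: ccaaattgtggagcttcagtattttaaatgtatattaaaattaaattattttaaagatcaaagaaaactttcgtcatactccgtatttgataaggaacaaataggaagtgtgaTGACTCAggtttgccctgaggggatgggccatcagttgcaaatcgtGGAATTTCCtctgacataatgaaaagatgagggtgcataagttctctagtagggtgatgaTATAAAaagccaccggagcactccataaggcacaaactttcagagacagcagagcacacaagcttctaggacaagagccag

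TGACTCA, on both strands, was present in 5 of the 25 promoters (20.0%), namely CXCL8, CXCL11, CXCL14, IL1A and IL11, against 4.95% of all promoters. TATAAA was present in 9 of 25, against 11.5% of all. CXCL8 and CXCL11 held all 3 elements.

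The values are MAS5 signals, 1 per probe set and scan on a linear scale, scaled per scan to the same trimmed mean (250.02 to 250.06 in the 18 scans). A loss of all intensities together is therefore not visible, and a change is relative to the other probe sets. The median signal of all probe sets lay between 51.0 and 136 and was highest on scan A1. Scan C1, taken by the standard protocol, was used to rank all 54675 probe sets, and the brightest probe set of a gene on that scan stands for the gene. Such ranks order signals and not amounts of transcript, since probe sets differ in their affinity. Of 6 thyroid markers measured, the transcription factors PAX8 and NKX2-1 lay in the upper 2 deciles on C1, at 757 and 766, HHEX lay in decile 8 at 176, and FOXE1, thyroglobulin (TG) and the thyrotropin receptor TSHR lay in decile 5 at 38.9 to 40.7. Of 5 fibroblast markers, 2 lay in the upper 2 deciles, COL1A2 at 4618 and COL1A1 at 347. DCN, LUM and PDGFRB lay in decile 6 at 54.2 to 61.9. Of 5 epithelial markers, KRT8 and KRT18 lay in the upper 2 deciles. EPCAM lay in decile 8 at 214, CDH1 in decile 4 at 32.3 and KRT19 in decile 1 at 4.59. The 5 endothelial markers lay below the upper 2 deciles, at 17.6 to 188. None of the 9 leukocyte markers measured reached these deciles, and their summed signal was 211 to 573 on the scans of the second series and 312 to 1016 on those of the first.

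Of the 35 genes, 7 were represented in the upper 2 deciles of C1: the neutrophil attractants CXCL1, CXCL2, CXCL5 and CXCL8, the stromal chemokine CXCL12, the lymphocyte growth factor IL15 and the macrophage growth factor CSF1. Another 11 genes lay in deciles 6 to 8 and 17 in the lower 5. By probe set, 9 of 58 (15.5%) lay in the upper 2 deciles, against 20.0% of all probe sets, 21 (36.2%) in deciles 6 to 8, against 30.0%, and 28 (48.3%) in the lower 5, against 50.0%. The list as a whole was thus spread over the signal range about as all probe sets were, and 4 of its 6 neutrophil attractants lay in the upper 2 deciles, with CXCL3 in decile 8 and CXCL6 in decile 5.

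**Figure D1:**
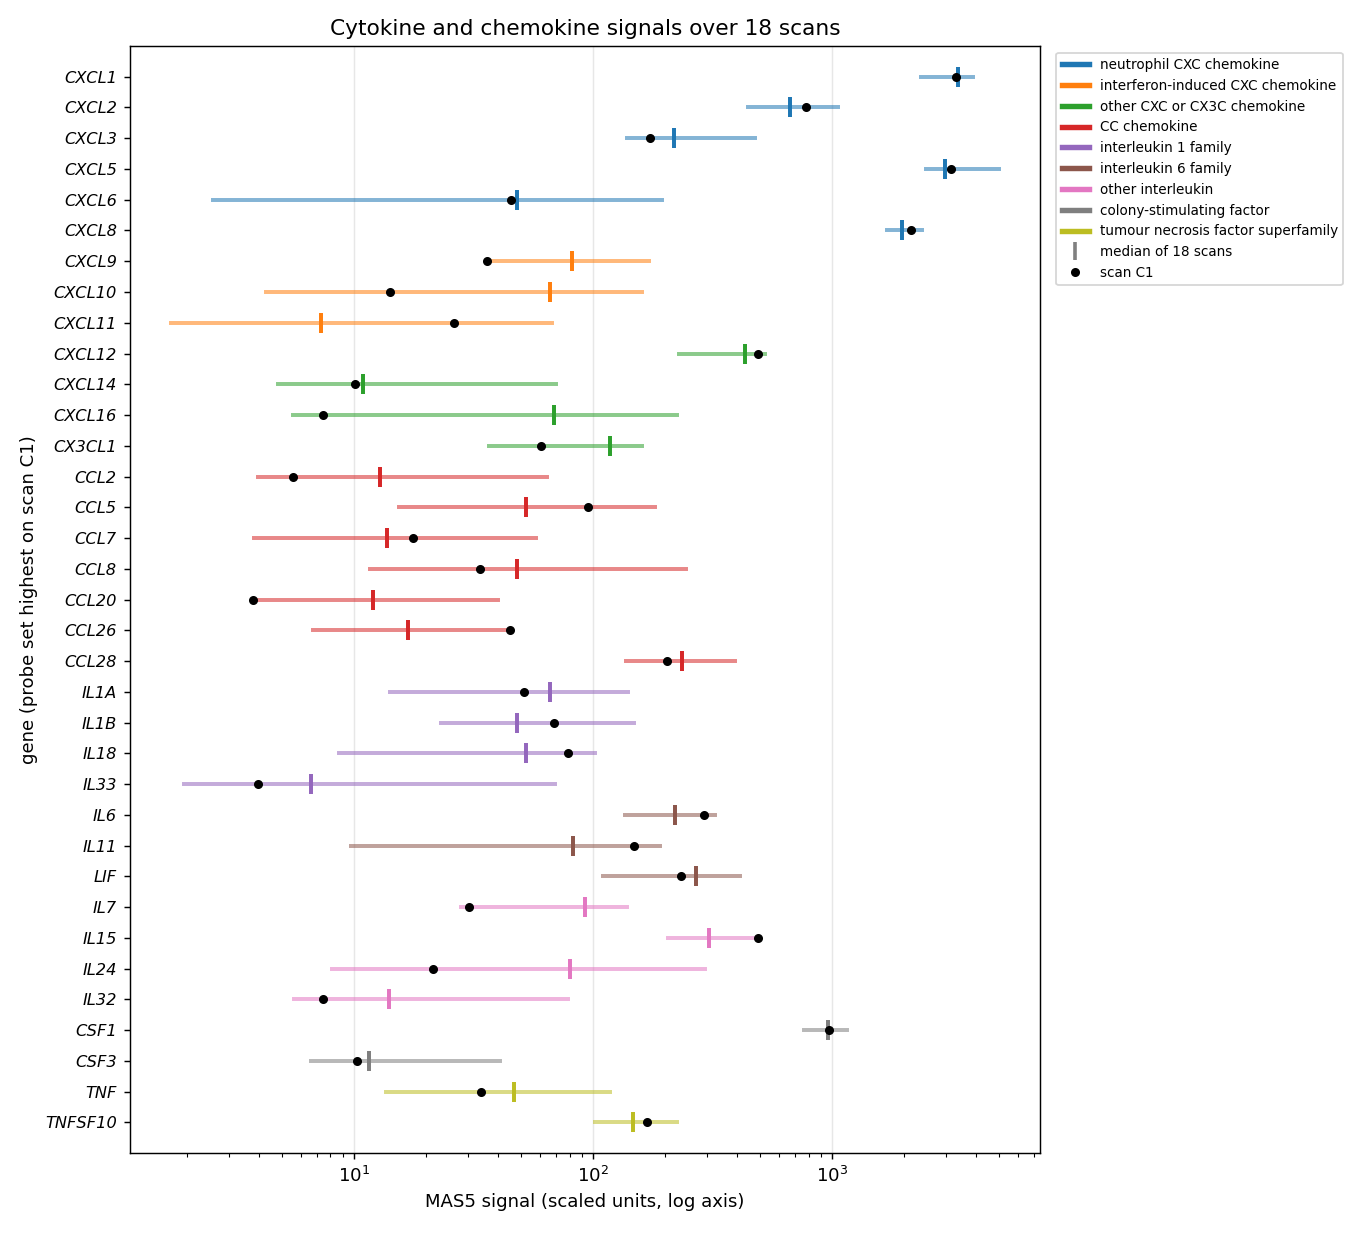
MAS5 signal of 35 cytokine and chemokine genes on a log axis, with a coloured line from the lowest to the highest of 18 scans, a tick at their median and a black point at scan C1. The plotted probe sets of CXCL1, CXCL5 and CXCL8, the brightest of each gene on C1, stand apart on every scan, with 1695 as the lowest value of CXCL8. The plotted probe set of CXCL6 spans 2.59 to 195.

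The spread between scans differed with the signal. Over the 16 scans of arrays A and B the highest signal divided by the lowest had a median of 1.97 for the 9 member probe sets in the upper 2 deciles, with a range of 1.41 to 2.42. It was 5.03 in deciles 6 to 8 and 12.3 in the lower 5. The same medians over all probe sets were 2.13, 6.47 and 15.1, so the members varied much as other probe sets of their signal did. The smallest ratios were those of CXCL8 (202859_x_at, 1.41), CXCL5 (215101_s_at, 1.42) and CSF1 (209716_at, 1.51), and the largest was that of CXCL6 (206336_at, 75.1).

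**Figure D2:**
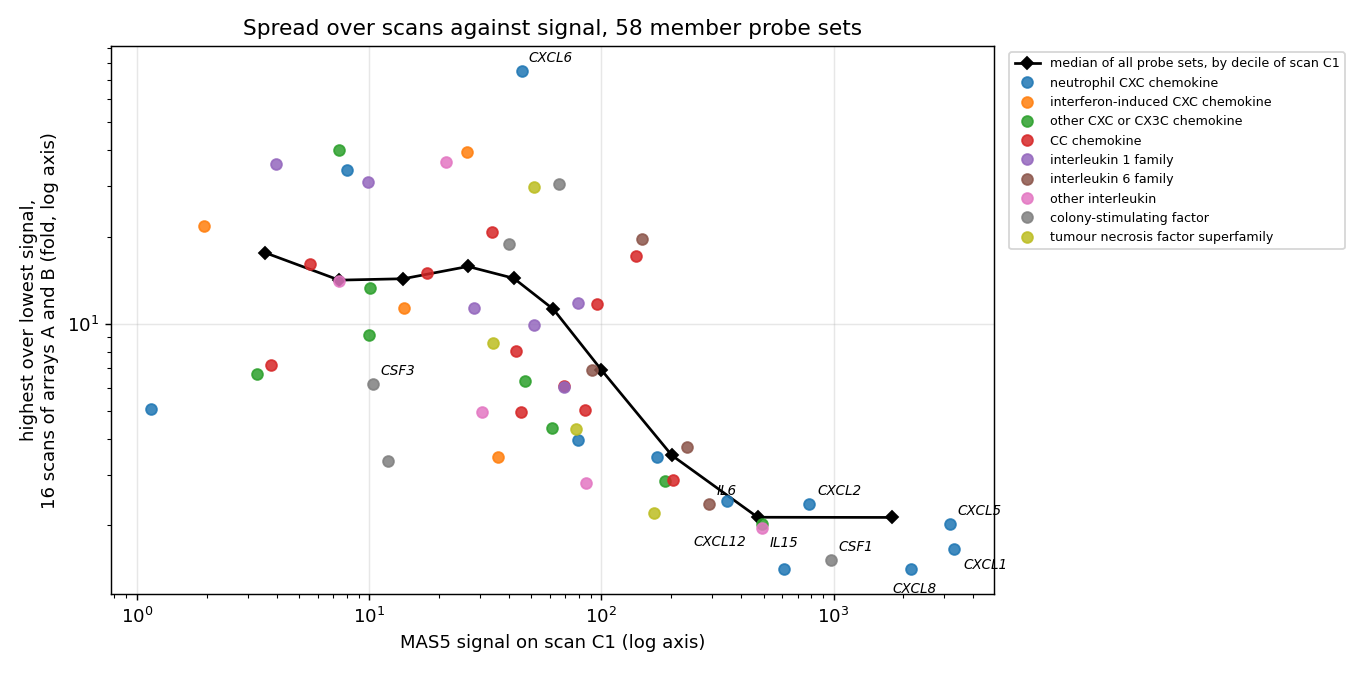
Highest over lowest signal among the 16 scans of arrays A and B against the signal on scan C1, both on log axes, for 58 member probe sets coloured by family. The black line gives the median of all probe sets in each decile of C1, and the members follow it downwards to 1.41 for CXCL8.

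CXCL1, a ligand of CXCR2 that attracts neutrophils, had the highest signal of the list on C1, 3308 (204470_at). For CXCL1 the second series gave 2965, 3385, 3698 and 3711 on scans A5 to A8, that is at 0, 2, 7 and 17 additional cycles, and 3334, 3199, 3846 and 3892 on scans B5 to B8, with 3044 on C2. Signals of the first series were 2361, 2683, 3458 and 3903 on scans A1 to A4 and 2892.5, 3261, 3603 and 3896 on scans B1 to B4. The signal was higher at each washing step in 3 of the 4 courses and dipped once, at 2 cycles on array B of the second series. Of all probe sets, 2.96% were higher at each step in at least 3 courses. That share was not taken within decile 10, to which CXCL1 belongs. The median change of this decile from 0 to 17 cycles was 0.14 to 0.64 over the 4 courses. The order of CXCL1 depended on the scaling. It held in 4 courses after median centring, in 0 after quantile normalization, and was reversed in 4 when scans were anchored on the 100 brightest probe sets.

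CXCL5, an attractant of neutrophils made by epithelial cells, had a signal of 3165 on C1 (214974_x_at). For CXCL5 the second series gave 2650.3, 2971, 3077 and 3073 on scans A5 to A8 and 2764, 2944, 2978 and 2959 on scans B5 to B8, with 3634 on C2. The first series gave 2469, 2587, 2632.5 and 2892 on scans A1 to A4 and 3544, 4432, 4631 and 5003 on scans B1 to B4. Array B thus stood above array A on all 4 scans of the first series, while in the second series the arrays overlapped.
The difference between the series ran in opposite directions on the arrays: CXCL5 was higher in the second series in 4 of 4 pairs of array A, by 0.15 on the log2 scale on average, and lower in 4 of 4 pairs of array B, by -0.59, as were 1.92% of all probe sets. The order also held after median centring, but after quantile normalization CXCL5 was higher in 2 of 4 pairs of array A, and when anchored it was higher in 2 of 4 pairs of array B. Its probe set 215101_s_at, at 611 on C1, had a median of 509 in the second series (lowest 488, highest 576) and of 611 in the first (lowest 517, highest 692). That probe set did not show the high first-series values of array B. The third, 207852_at, was dimmer, with 79.1 on C1.

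CXCL8 (interleukin 8), the classical neutrophil attractant, had a signal of 2154 on C1 (202859_x_at). For CXCL8 the second series gave 1911, 1967, 1955 and 2027 on scans A5 to A8 and 2266, 2390.2, 2384 and 2298.5 on scans B5 to B8, with 2351 on C2. Signals of the first series were 1695, 1730, 1752 and 1785 on scans A1 to A4 and 1926, 1924, 1867 and 2073 on scans B1 to B4. The second series was higher in 9 of 9 pairs of the same array and the same number of additional cycles, which was the case for 1.72% of all probe sets, and in 8 of 9 pairs after median centring or quantile normalization. The groups of 9 scans overlapped nevertheless. Its other probe set, 211506_s_at, gave the opposite order, with a median of 257 in the second series (155 to 337) and of 342 in the first (212 to 375).

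CXCL2, a close paralog of CXCL1, had a signal of 783 on C1 (209774_x_at). For CXCL2 the second series gave 571, 657, 453 and 452 on scans A5 to A8 and 753, 794, 647 and 601 on scans B5 to B8, with 811 on C2. The first series gave 448, 566, 700.5 and 636 on scans A1 to A4 and 1064, 1034, 1018 and 677 on scans B1 to B4. After 17 cycles its signal was above that after 0 cycles on array A of the first series and below it in the other 3 courses, or below it in all 4 when anchored. Its probe sets 1569203_at and 230101_at lay in the lower 2 deciles on C1, at 8.04 and 1.15. CXCL1, CXCL2 and CXCL3 are similar in sequence, and probe sets whose names end in _x_at hold probes that may bind several transcripts. The signal of 209774_x_at can thus not be given to CXCL2 with certainty. The same limit holds for 214974_x_at of CXCL5 and 202859_x_at of CXCL8, the probe sets that stand for these genes.

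CXCL3, the third of these paralogs, lay in decile 8 with 174 on C1 (207850_at). Its median was 198 in the second series (160.0 to 415) and 281 in the first (139 to 477). CXCL6, the paralog of CXCL5, lay in decile 5 with 45.3 on C1 and is described with the differences between arrays.

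CXCL12, the ligand of CXCR4, had a signal of 493 on C1 (209687_at). For CXCL12 the second series gave 480.0, 272, 324 and 260.2 on scans A5 to A8 and 409, 379, 391 and 359 on scans B5 to B8, with 230.1 on C2. Signals of the first series were 475, 478, 500.0 and 373 on scans A1 to A4 and 491, 476, 527 and 460.3 on scans B1 to B4. The second series was lower in 8 of 9 pairs, the exception being the pair of A5 and A1, and also in 8 of 9 after median centring or quantile normalization, but in 3 of 9 when anchored. Its second probe set, 203666_at, at 188 on C1, had nearly equal medians of 204 in the second series and 208 in the first.

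IL15, which supports natural killer and memory T cells, had a signal of 492 on C1 (205992_s_at). For IL15 the second series gave 328, 272, 210.4 and 207 on scans A5 to A8 and 375, 307, 271 and 257 on scans B5 to B8, with 451 on C2. The first series gave 385, 318, 306 and 255 on scans A1 to A4 and 408, 327, 292 and 285 on scans B1 to B4. This was the only member that was lower at each washing step in all 4 courses, as were 0.194% of all probe sets, an order kept in 1 course after median centring, 2 after quantile normalization and 4 when anchored. It was also lower in the second series in 9 of 9 pairs, against 2.2% of all probe sets, but in 7 of 9 after median centring and in 3 of 9 when anchored. The other probe set of IL15, 217371_s_at, did not show this order and scattered between 59.7 and 167.

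CSF1, the growth factor of macrophages, had a signal of 973 on C1 (209716_at). For CSF1 the second series gave 763, 859, 908 and 907 on scans A5 to A8 and 1157, 1009.8, 1114 and 1145 on scans B5 to B8, with 901 on C2. Signals of the first series were 783, 957, 932 and 964 on scans A1 to A4 and 817, 962, 962 and 1007 on scans B1 to B4. It was lower in the second series in 4 of 4 pairs of array A and higher in 4 of 4 pairs of array B, by averages of -0.08 and 0.24 on the log2 scale, an order shared by 2.62% of all probe sets. On array A this depended on the scaling, since CSF1 was higher in 2 of 4 pairs there after median centring or when anchored and in 1 of 4 after quantile normalization. The other 3 probe sets of CSF1 lay at 12.0 to 65.5 on C1 and varied by 3.35 to 30.5 fold over 16 scans.

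**Figure D3:**
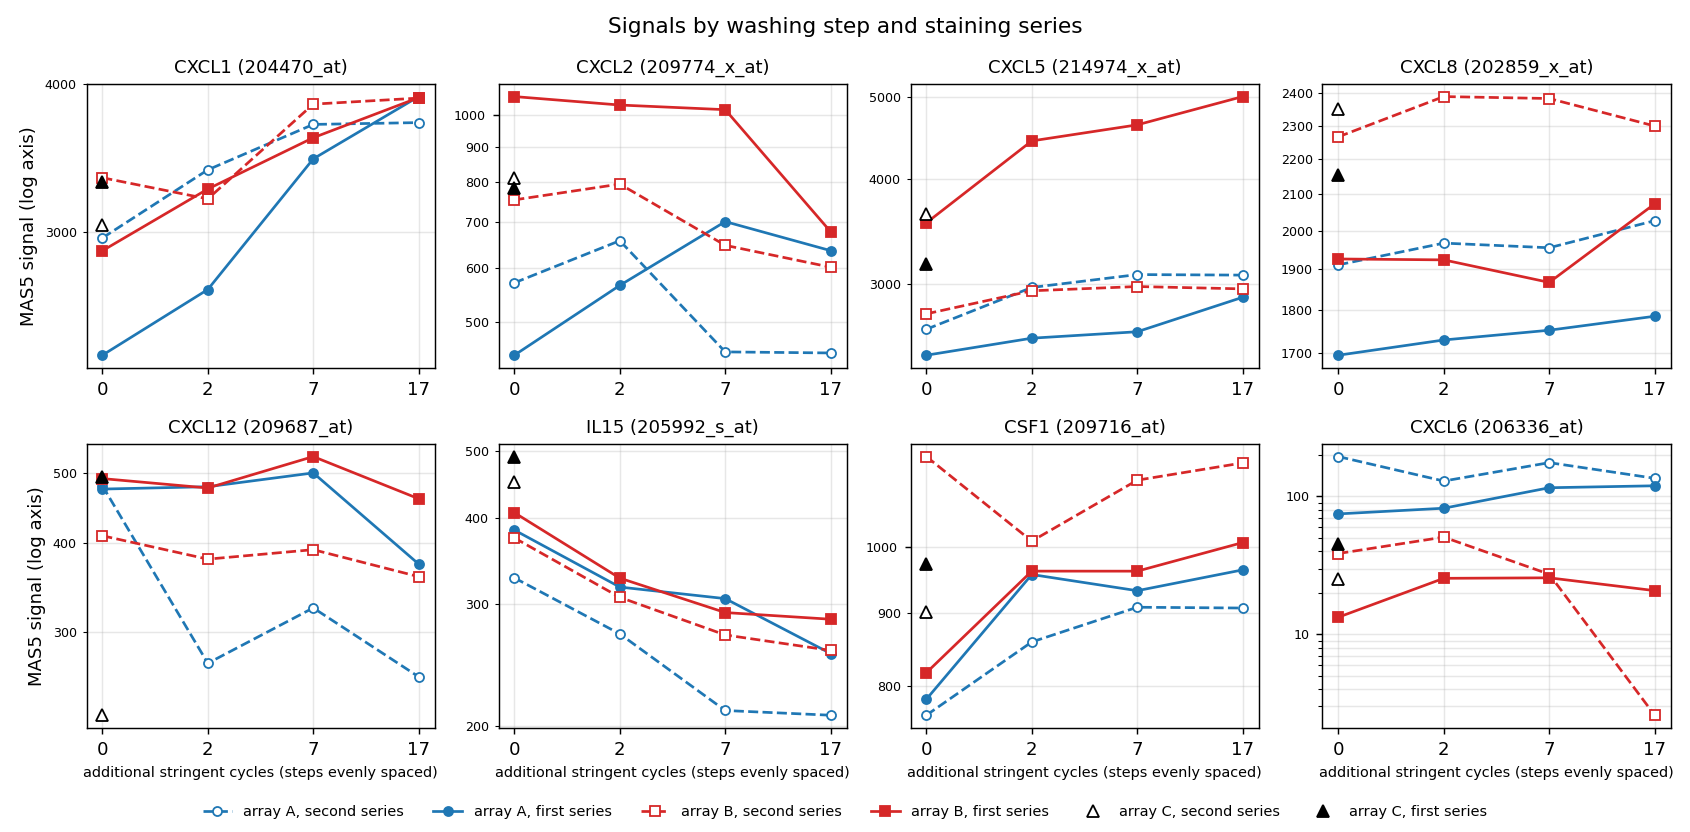
MAS5 signal on a log axis against additional stringent cycles for the 7 genes of the upper 2 deciles and CXCL6, with array A in blue, array B in red and array C as triangles at 0 additional cycles, open symbols for the second series and filled symbols for the first. As deposited, IL15 is lower at each step in all 4 courses (1 after median centring), CXCL8 lies higher in the second series, CXCL1 is higher at each step in 3 courses (lower in 4 when anchored) and all scans of array A lie above those of array B for CXCL6 (not after median centring).

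The middle of the signal range held genes of several families. IL6, a central inflammatory cytokine, stood just below the upper 2 deciles with 292 on C1, with a median of 202 in the second series (136 to 324) and of 268 in the first (180.3 to 325). LIF, which shares the receptor subunit gp130 with IL6, had a median of 245 in the second series (110.0 to 312) and of 283 in the first (224 to 412). The third gp130 cytokine, IL11, was less steady: 206924_at varied by 19.7 fold over 16 scans. CCL28, a mucosal chemokine, had a median of 236 in the second series (212 to 321) and of 235 in the first (138 to 395), and TNFSF10 (TRAIL), which triggers apoptosis through death receptors, one of 147 in the second series (102 to 184) and 146 in the first (103 to 226). For both genes the medians differed by far less than the spread between scans. The inflammasome product IL18 and the interleukin 1 genes IL1A and IL1B also lay in deciles 6 and 7, with 51.5 to 79.0 on C1, together with CX3CL1 (fractalkine) and CCL5.

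The lower 5 deciles held all 3 interferon-induced ligands of CXCR3 (CXCL9, CXCL10 and CXCL11), with CXCL11 at 26.3 and CXCL10 at 14.2 on C1. They also held 5 of the 7 CC chemokines (the monocyte attractants CCL2, CCL7 and CCL8, the CCR6 ligand CCL20 and the eotaxin CCL26), the alarmin IL33, IL7, IL24, IL32, CXCL6, CXCL14, CXCL16, the granulocyte factor CSF3 and TNF itself. Their signals on C1 were 3.78 to 45.3. Over the 16 scans of arrays A and B they varied by 3.45 fold (CXCL9) to 75.1 fold (CXCL6). Detection calls were not used here, and whether these signals exceed the background was not tested.

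Re-labelling was tested as second minus first series in limma over all probe sets, with the 9 pairs of array and additional cycles as a block, so that the fitted difference holds the second staining and the 6 to 19 further cycles together. No member passed an adjusted p of 0.05 in either direction, 0 of 58 higher and 0 of 58 lower, where 0.294% of all probe sets were called higher and 0.541% lower. At an unadjusted p of 0.05, 3 member probe sets were higher, of CXCL8, CCL2 and IL32, against 8.34% of all probe sets, and 9 were lower (15.5%), against 11.3%. The 9 were of CXCL8 (211506_s_at), CXCL12, CXCL14, CCL7, CCL8, CCL28 (224240_s_at), IL1B, IL33 and LIF. Both shares lie near those of all probe sets. Under limma's variance trend with the robust option, 1 member (CXCL12) was called lower, against 1.83% of all probe sets, and 0 higher, against 1.53%. Anchored on the 100 brightest probe sets, 7 were called higher, against 20.1% of all. The p-values measure only the spread between repeated scans of 3 hybridizations of 1 RNA sample.

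CCL8 (214038_at) was singled out after its values were seen, because it came nearest to the threshold. Its fitted change was -0.99 (SE 0.20, adjusted p = 0.0549, limma), and its signal was lower in 8 of 9 pairs. With the scans of each array averaged per series (the array as the unit), the change was -0.93 (SE 0.30, adjusted p = 0.777, limma). On array B CCL8 was at 11.7 to 15.9 in the second series, against 27.1 to 51.0 in the first. On array A the series overlapped (85.9 to 167, against 103 to 245). The fitted change of CXCL12 was -0.49 (SE 0.13, adjusted p = 0.0985, limma) and that of CCL2 0.91 (SE 0.23, adjusted p = 0.0887, limma). For the brighter CXCL8 probe set it was 0.21 (SE 0.09, adjusted p = 0.252) and for IL15 -0.21 (SE 0.10, adjusted p = 0.277) in the same limma fit. For CXCL1 the estimate was 0.09 (SE 0.10), for CSF1 0.06 (SE 0.11), for CXCL5 -0.17 (SE 0.15) and for CXCL2 -0.25 (SE 0.14). With the array as the unit, the adjusted p in limma was 0.777 for CXCL12, 0.895 for the brighter CXCL8 probe set and 0.897 for IL15. The median over the 35 representatives was -0.21, against -0.02 for all probe sets. These medians are not like for like, since representatives were picked by their signal on C1, a scan of the first series. With all probe sets of a gene averaged, the median of the members was -0.11.

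Within an array, A5 and A4 were the only scans of different series with equal totals, 17 cycles each. This pair was chosen after the values were seen and has no replicate. On A5 41 of 58 member probe sets (70.7%) were above their value on A4, against 61.7% of all probe sets. IL15 was at 328 on A5 and 255 on A4, a log2 difference of 0.36 as deposited and of -0.01 after median centring, although it was lower in the second series in 9 of 9 pairs. CXCL12 was at 480.0 on A5 and 373 on A4 (0.36 as deposited, -0.01 after median centring), and CXCL8 at 1911 on A5 and 1785 on A4 (0.10 as deposited, -0.27 after median centring). The other members of the upper 2 deciles were lower on A5 as deposited: CXCL1 (-0.397), CSF1 (-0.337), CXCL2 (-0.155) and CXCL5 (-0.126). When anchored, each of these genes was higher on A5, from 1.0 for CXCL1 to 1.76 for IL15.

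**Figure D4:**
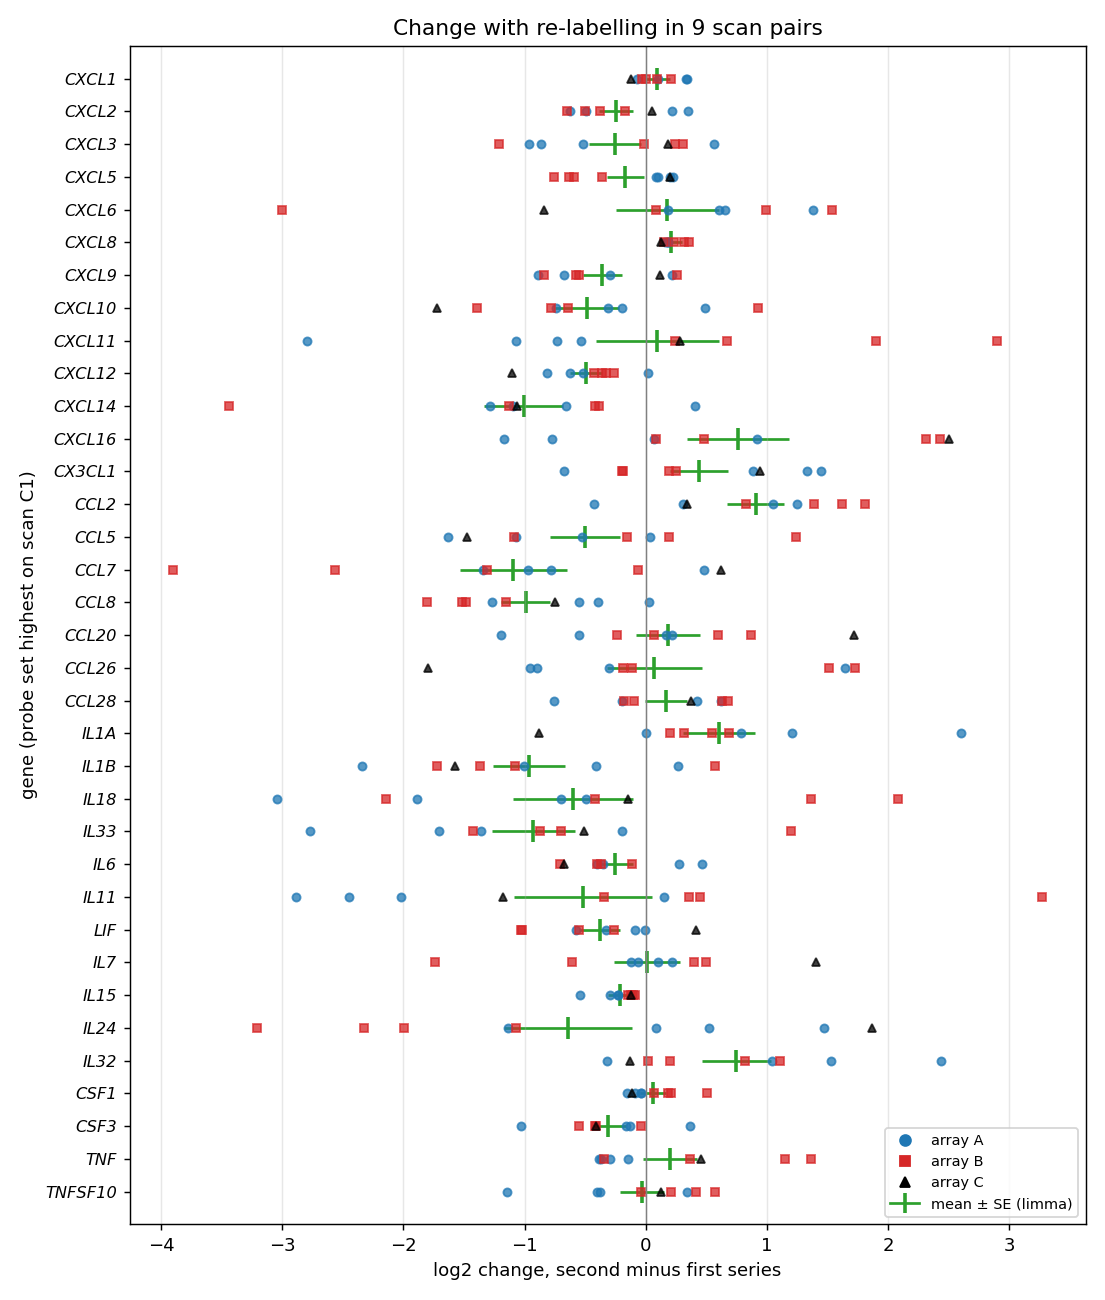
Log2 change, second minus first series, in 9 pairs of scans for each of 35 genes, as points for arrays A, B and C, with the limma mean and its standard error in green. As deposited, the points of CXCL8 all lie above 0 (8 of 9 after median centring) and those of IL15 all below it (3 of 9 when anchored), while those of IL11, CXCL11, IL18, IL24, CXCL6 and CCL7 spread most widely, over 4.53 to 6.15 log2 units.

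Washing was tested as 17 minus 0 additional cycles within each series, over 8 scans, with the array (A or B) as a block. No member was called in the second series or in the first, 0 of 58 in each, and 0.0% of all probe sets passed either fit. At an unadjusted p of 0.05 there were 0 member probe sets higher and 8 lower in the second series, against 2.55% and 11.6% of all probe sets. In the first series 3 were higher, of CXCL11 (210163_at), IL1B (205067_at) and IL33, and 7 lower, against 3.5% and 13.9%. The 7 were of CXCL3, CCL20, IL1A (208200_at), IL1B (39402_at), IL24 and TNFSF10 (214329_x_at and 202687_s_at). The probe sets that stand for IL1B (39402_at) and CXCL11 (211122_s_at) had fitted changes of -1.53 and -1.57. Under limma's variance trend with the robust option CXCL1 alone was called higher in the first series, against 3.57% of all probe sets, and 0 lower, against 1.21%, and in the second series 0 were higher and 0 lower, against 2.38% and 0.448%. Anchored on the 100 brightest probe sets, 32 members were lower in the second series, against 42.8% of all, and 35 in the first, against 54.6%. The difference between the series, tested as an interaction over 16 scans, called 0 members and 0.0% of all probe sets, and at an unadjusted p of 0.05 1 member was higher and 3 lower, against 4.91% and 2.58% of all probe sets.

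The changes of the bright members were read beside those of all probe sets of the same deciles. Over all probe sets the median change in the second series was -0.27 (array A) and -0.21 (array B), and in the first -0.61 (array A) and -0.27 (array B). In the second series 6 of the 9 member probe sets of the upper 2 deciles lay above it on array A, against 82.0% of all probe sets of these deciles, and 6 of 9 on array B, against 71.0%. In the first series 9 of 9 lay above it on array A, against 91.7%, and 7 of 9 on array B, against 64.9%. CXCL1 was the brightest of them, with changes of 0.32 and 0.22 on arrays A and B of the second series and of 0.72 and 0.43 on those of the first. CXCL8 had changes of 0.09 and 0.02 in the second series and 0.07 and 0.11 in the first. Decile 10, to which both belong, had medians of 0.25 and 0.14 in the second series and of 0.64 and 0.20 in the first. CXCL1 lay above these medians and CXCL8 below them on each array and in each series. CXCL5 (214974_x_at), of the same decile, lay above its median only on array B of the first series (0.50). After quantile normalization the change of CXCL1 was -0.02 and -0.04 in the second series and -0.17 and 0.02 in the first, so its direction depended on the scaling.

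After 17 cycles 5 member probe sets (8.62%) were above their value after 0 cycles in all 4 courses, against 7.39% of all. They were of CXCL1, CXCL5 (214974_x_at), CXCL8 (202859_x_at), CCL5 (1405_i_at) and IL33. Another 16 (27.6%) were below their value after 0 cycles in all 4, against 24.8%. These counts moved with the scaling: 9 were above and 6 below after median centring, 6 and 10 after quantile normalization, and 0 and 52 when anchored. CXCL5 and CXCL8 were above in 0 of 4 courses after quantile normalization or when anchored. IL15 had changes of -0.66 and -0.54 on arrays A and B of the second series and of -0.60 and -0.51 on those of the first. Decile 9, to which it belongs, had medians of -0.06 and -0.20 in the second series and of 0.01 and -0.31 in the first. IL15 was lower after 17 cycles on each array and in each series as deposited, after quantile normalization and when anchored, but not after median centring, where its change on array A of the first series was 0.06. The fitted change was -0.60 in the second series (SE 0.18) and -0.56 in the first (SE 0.27), and neither passed the threshold in limma on the deposited scale.

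**Figure D5:**
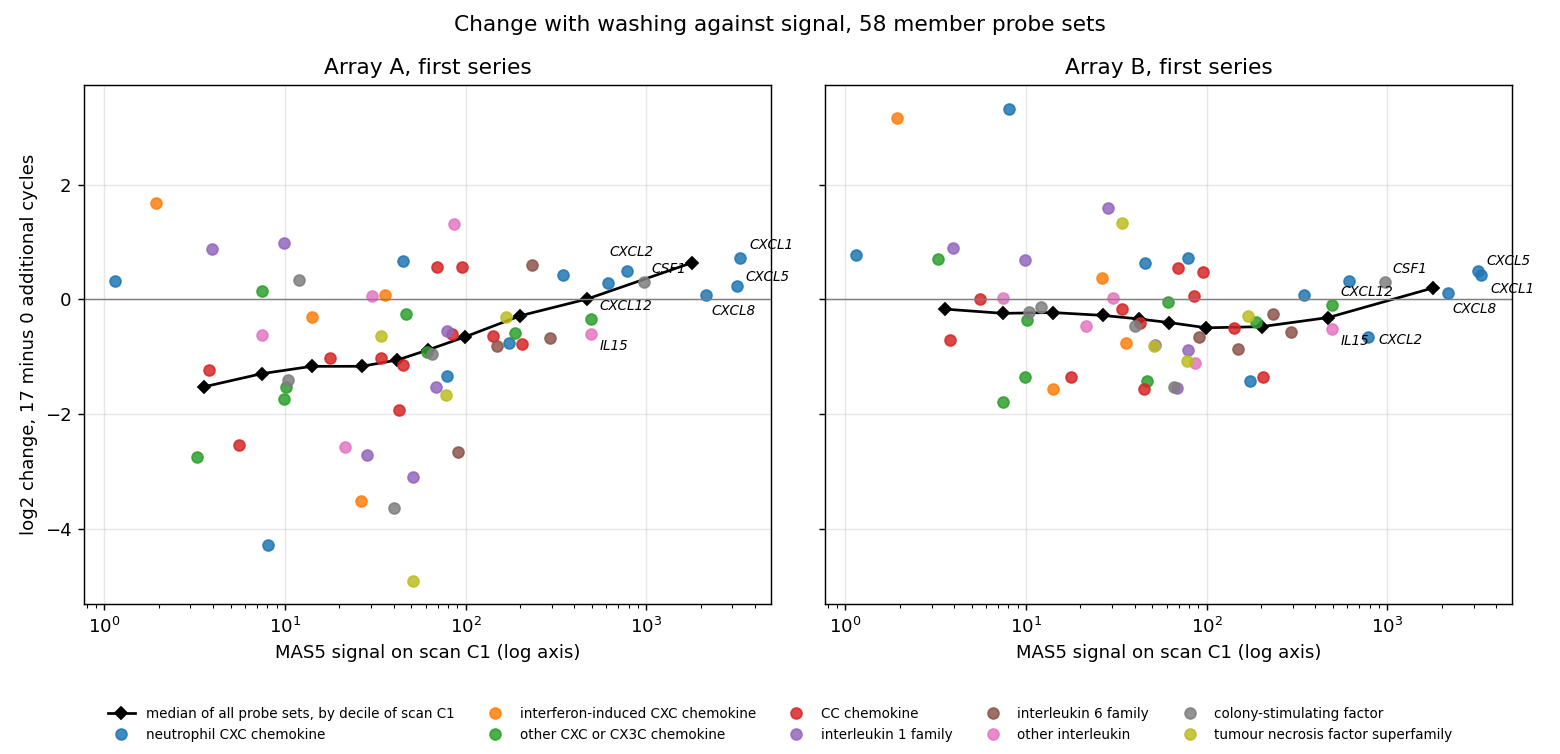
Log2 change between 17 and 0 additional cycles in the first series against the signal on scan C1 (log axis), on array A (left) and array B (right), for 58 member probe sets coloured by family. The black line gives the median of all probe sets per decile of C1: as deposited, CXCL1 lies above 0 on both arrays (below it when anchored) and IL15 below it (0.06 on array A after median centring).

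Arrays A and B also differed for dim members. In 8 probe sets all 8 scans of array A lay above all 8 scans of array B (13.8% of 58), against 10.4% of all probe sets, and the reverse held for 0, against 2.35%. The direction depended on the scaling, since after median centring array A was above in 1 member probe set and array B in 11, after quantile normalization in 2 and 2, and when anchored in 4 and 0. The 8 were of CXCL6, CX3CL1 (203687_at), CCL5 (1555759_a_at), CCL8, CCL20, IL7, CSF3 and TNF. CCL8 had this order under all 4 scalings, and CXCL6, CCL5 and TNF had it only as deposited and when anchored. CXCL6 was at 2.59 to 50.7 on array B, against 74.7 to 195 on array A, with 45.3 on C1 and 25.4 on C2. For TNF the range was 13.7 to 47.0 on B, against 53.1 to 118 on A, and for IL7 it was 28.0 to 93.6 on B, against 112 to 139 on A. Of the 8, 7 lay in the lower 5 deciles of C1, where 13.4% of all probe sets had this order. Array B had 2 more stringent cycles than array A in each scan of the first series and 4 more in each scan of the second, and it is another array; these differences cannot be told apart.

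The other genes of the pathway gave the surroundings of the list. Of 49 receptor genes 47 were measured, 8 of them in the upper 2 deciles of C1, led by the interleukin 7 receptor IL7R (9142), the gp130 subunit IL6ST (2096) and the TRAIL receptor TNFRSF10B (1769). All 11 inhibitors and processing enzymes were measured, 4 of them in the upper 2 deciles, led by the sheddase ADAM10 (4223), the NF-kB inhibitors TNFAIP3 (2198) and NFKBIA (1322). Of 22 signal transducers 18 were measured, 12 of them in the upper 2 deciles, led by IRAK1 (7098), JAK1 (2844) and STAT3 (1633). These deciles hold 20.0% of all probe sets. The counts are not like for like with that share, since each gene was taken by its brightest probe set on C1. Between the series 0 of these 76 genes were called higher, against 0.294% of all probe sets, and 3 lower (3.95%), against 0.541%, in limma: the receptor subunits IL2RB (-1.70, adjusted p = 0.0341) and IL20RA (-2.25, adjusted p = 0.0432) and the NF-kB subunit RELB (-0.84, adjusted p = 0.0405). None of them was in the upper 2 deciles. The 3.95% is a share of genes, each taken by its brightest probe set on C1, a scan of the first series. It is thus not like for like with the 0.541% of all probe sets. Over the 18 scans IL2RB ranged from 8.55 to 268, IL20RA from 2.97 to 72.1 and RELB from 80.1 to 337. The calls rest on repeated scans of 3 arrays. How they stand under other scalings or with the array as the unit is not given here. With washing 0 were called in either series.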

How the data were processed

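The intensities deposited by the authors are MAS5 signals of 54675 probe sets in 18 scans of 3 arrays, scaled per scan to the same trimmed mean; the version of MAS5 is not given in the sources used here. Probe sets were assigned to genes through the annotation table of the platform (41097 with 1 symbol, 1801 with several, 11777 with none), and the gene identifiers of all 35 members were found in RefSeq (GRCh38.p14). No 2 scans held identical values. Scans of 1 array are repeated measurements of 1 hybridization, so the number of arrays limits the precision. Fits used limma 3.58.1 in R 4.3.3 on log2 signals, without an offset or filter, with Benjamini-Hochberg adjustment over all probe sets and a threshold of 0.05. Pairs for re-labelling come from the labels (the same array at the same number of additional cycles, not of total cycles). The fits were also run on simulated data with independent noise and no differences between arrays. That run does not show how the fits perform on repeated scans of 3 arrays. Descriptions used Python 3.11.15, pandas 2.3.3 and numpy 2.4.6, and plots matplotlib 3.10.9. Values are printed per course for genes whose representative lies in the upper 2 deciles of C1, and members of the lower 5 deciles as ranges; other genes of the pathway are named if past the threshold or among the 3 highest on C1 in their role. The members, lists and rules were chosen with earlier results of these data known. Alternatives were median centring, quantile normalization, anchoring on the 100 brightest probe sets, adding 16 before log2, a filter keeping the brighter 27338 probe sets, fits without a replicate block, limma's variance trend with its robust option, a line in log10 of 1 plus the cycles, the array as the unit, and the omission of single scans, pairs or arrays.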

Additional observations from a re-analysis of the deposited data

Results flagged for a closer look

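In 116 groups of 9 scans (58 probe sets, 2 series), 10 held a scan that stood apart from the other 8 by Dixon's criterion. The same count was not made over all probe sets, so whether 10 is many for these arrays was not tested. Chance meets this criterion in about 1 in 20 groups of independent, normally distributed values. That rate does not apply here, since each group holds repeated scans of 3 arrays at different washing steps. In the second series the flagged scans were CXCL3 at 415 on A8 (nearest scan 245), CXCL5 (214974_x_at) at 3634 on C2 (nearest 3077), and CXCL6 at 2.59 on B8 (nearest 25.4). In the first series CXCL2 (230101_at) was at 1.15 on C1 (nearest 34.3), CXCL5 (207852_at) at 306 on A1 (nearest 139.8) and CXCL12 (209687_at) at 373 on A4 (nearest 460.3). CXCL14 (237038_at) was at 50.6 on A1 (nearest 17.5) and IL18 at 12.2 on B2 (nearest 39.9). IL11 (206924_at) was at 9.73 on B3 (nearest 59.8) and TNFSF10 (202687_s_at) at 7.66 on A4 (nearest 41.5).

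The change between the series ran one way in all 4 pairs of array A and the other way in all 4 pairs of array B for 3 probe sets, and this difference was not tested. For CXCL5 (214974_x_at) the mean change on array A exceeded that on array B by 0.74 on the log2 scale (0.15 on A, -0.59 on B). For CXCL11 (211122_s_at) the difference was -2.71 (-1.28 on A, 1.43 on B) and for CSF1 (209716_at) -0.32 (-0.08 on A, 0.24 on B). Of all probe sets, 1.92% were higher on A and lower on B, and 2.62% lower on A and higher on B.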

How the results depend on the processing

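Without 1 pair or 1 array, or with the array as the unit, 0 members were called for re-labelling. Without 1 scan, 0 were called for washing in each series. Washing was not refitted without an array. Anchoring on the 100 brightest probe sets moves the median change of all probe sets to 0.40 for re-labelling, -1.13 for washing in the second series and -1.80 in the first; it called 7 members higher with re-labelling (all probe sets 20.1%), 32 with washing in the second series (42.8% lower) and 35 in the first (54.6% lower). Re-labelling called 1 member lower with a variance trend and robust moderation (CXCL12), 1 with an offset of 16 and 1 with no replicate block (CCL8 in both); washing in the first series called 1 (CXCL1, higher) with a variance trend. The median of the members relative to all probe sets for re-labelling was -0.19, and -0.085 when the probe sets of a gene were averaged; for washing in the first series it was -0.14, and -0.16 with quantile normalization, -0.15 with an offset and -0.18 when averaged. For re-labelling, CXCL1 turned to -0.036 with quantile normalization; when anchored, CXCL2 turned to 0.18, CXCL5 to 0.26 and IL15 to 0.22; without array B, CXCL5 turned to 0.16 and CSF1 to -0.086. For washing, CXCL1 turned to -0.031 in the second series and -0.076 in the first with quantile normalization, and to -0.61 and -0.78 when anchored. The causes were not tested beyond what each scaling fixes. The alternatives for CCL8, for washing of CXCL1 and IL15 and for the counts of pairs, courses and array orders were chosen after seeing the data.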
